A study of Mus musculus with 47 samples.

Results

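The genes examined here encode subunits of the NMDA receptor: Grin1, Grin2a, Grin2b, Grin2d and Grin3a, which are 5 of the 22800 gene symbols of the count table. They were taken by name, and their values were followed in 26 of the 47 sequenced columns: 10 of the 20 columns from the auditory cortex (AC), 13 of the 21 from CA3 and all 3 from CA1. Every cell was an NPY-positive neuron of a mouse 3 to 8 weeks old, untreated, from a reporter line in which a green fluorescent protein marks cells that make neuropeptide Y. The line is named NPY-EGFP in the series description and NPY-hrGFP in the study's methods. AC cells lay in layers 1 and 2 of coronal slices, CA3 cells in the stratum lacunosum-moleculare of horizontal slices. The cytosol of each cell was drawn through the patch pipette after recording and made into a cDNA library. The 8 mice of the series are not assigned to cells, so each region counted as 1 sample. Differences between regions are therefore described without a test, and each SD is a spread over cells. The 2 dentate gyrus cells, the NPY-negative CA3 cell and the other 18 columns were not among the cells followed.

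NMDA receptors are tetramers that open when glutamate and a co-agonist, glycine or D-serine, bind together. The subunit GluN1, encoded by Grin1, carries the co-agonist site and is required in every conventional receptor. GluN2 subunits (Grin2a to Grin2d) bind glutamate and set the open time, the strength of the magnesium block and the binding of regulators. GluN2B dominates early in forebrain development, GluN2A is added later, and GluN2D is well known from interneurons, where it gives slowly deactivating receptors with weak magnesium block. GluN3A, encoded by Grin3a, binds glycine and lowers calcium permeability.

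In GRCm38 (GENCODE vM21), Grin1 lies at chr2:25291181-25319187, Grin2a at chr16:9567898-9995560, Grin2b at chr6:135713233-136173511, Grin2d at chr7:45831883-45878378 and Grin3a at chr4:49661611-49845744, all on the minus strand. The subunits are paralogs, so the likeness of their transcripts bears on how far a short read can tell them apart. Over the whole transcripts with the longest coding part, the longest identical run was 28 bases between Grin2a and Grin2d, 24 between Grin2a and Grin2b and 18 between Grin2b and Grin2d. No run of 30 bases in Grin1, Grin2a or Grin3a recurred in another NMDA receptor gene, and only 5 of 24031 in Grin2b and 3 of 5402 in Grin2d did, all shared with Grin2c. Opposite-strand genes overlapped 1307 exonic bases of Grin1 (Grin1os), 643 of Grin2d (Gm45441) and at most 143 of Grin2b, and reads from these stretches cannot be assigned by position alone, since the strand setting of the counting is not given in the sources used here.

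The deposited values were raw read counts. The 26 cells held between 601781 reads (a CA1 cell) and 7949918 (a CA3 cell), with 3163 to 8149 genes detected. The 3 GABAergic markers Gad1, Gad2 and Slc32a1 together made 2221 to 17749 CPM (counts per 1000000 reads of the cell), so each cell carried reads of GABAergic markers. Markers of other cell types were present in part: the microglial list reached 4365 CPM in AC cell N42, the astrocyte list 1224 CPM in N4, the oligodendrocyte list 955 CPM in CA3 cell N28, and the list for pyramidal neurons 204 CPM in CA3 cell N26. In AC, CA3 and CA1, 6, 3 and 5 of 8 astrocyte genes had reads, 2, 4 and 3 of 6 oligodendrocyte genes, 6, 6 and 4 of 7 microglial genes, 5, 3 and 2 of 5 pyramidal genes, 0, 1 and 1 of 4 genes of oligodendrocyte precursors, and 1 of 4 endothelial genes in each. Among the listed genes at 0 in all 3 regions were Aqp4, Mog, Tmem119 and Cldn5. The part of these reads in the results below was not tested.

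One technical comparison was possible. Columns N4 and N4X, both labelled AC, correlated at 0.997 over log2 CPM and differed by a chi-square of 2.20 per degree of freedom, against 37.03 or more for every other pair of a region, so they were read as 1 cell and N4X was left out. In subunit shares, Grin2a made 64.6% of Grin2 reads in N4 and 69.6% in N4X, Grin2b 23.2% and 17.99%, and Grin2d 12.2% and 12.4%. The largest gap was 5.23 percentage points, and the exact 95% intervals of the 2 columns did not overlap for Grin2a or Grin2b, so these gaps were larger than counting error. They come from 1 pair of columns read as the same cell, and so do not measure how separate cells differ through lysis and amplification.

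The mix of Grin2 subunits differed widely from cell to cell within each region, and most cells were dominated by 1 gene. The share of a subunit is its reads over the summed Grin2a, Grin2b and Grin2d reads of the cell. Grin2a, the subunit of mature and faster receptors, was the largest in 18 of 26 cells, Grin2b in 7 and Grin2d in 1. The largest subunit exceeded 50% in 25 cells and 90% in 4.

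**Figure D1:**
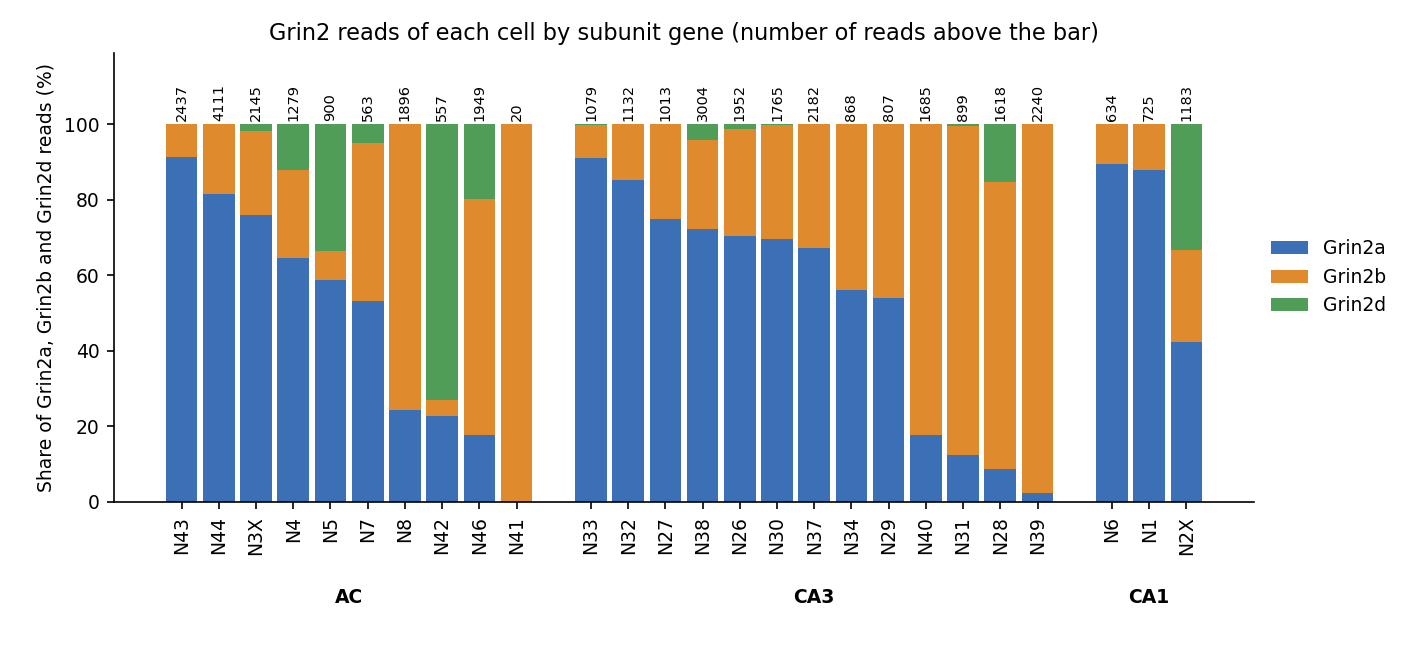
Share of Grin2a, Grin2b and Grin2d in the Grin2 reads of each of the 26 cells (stacked bars, percent), ordered within AC, CA3 and CA1 by the Grin2a share, with the number of Grin2 reads above each bar. The Grin2a share ran from 0% to 91.5% in AC and from 2.32% to 91.2% in CA3, so both regions held cells at either end.

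In AC, Grin2a made 91.5% of the Grin2 reads in N43, 81.6% in N44, 76.0% in N3X, 64.6% in N4, 58.8% in N5, 53.3% in N7, 24.4% in N8, 22.8% in N42, 17.8% in N46 and 0% in N41. Grin2b made 8.54%, 18.4%, 22.1%, 23.2%, 7.78%, 41.7%, 75.6%, 4.13%, 62.5% and 100% in the same order of cells. Thus 6 AC cells were mainly Grin2a and 3 mainly Grin2b, while N42 was mainly Grin2d. The 100% of N41 rests on only 20 reads (95% interval 83.2% to 100%), whereas every other cell had at least 557 Grin2 reads.

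In CA3, Grin2a made 91.2% in N33, 85.2% in N32, 74.8% in N27, 72.4% in N38, 70.5% in N26, 69.6% in N30, 67.2% in N37, 56.1% in N34, 54.0% in N29, 17.7% in N40, 12.4% in N31, 8.71% in N28 and 2.32% in N39. Between N29 and N40 lay a gap with no cell. Grin2b made 46.0% in N29 and 43.9% in N34, and then 82.3% in N40, 87.2% in N31, 76.1% in N28 and 97.7% in N39 (exact 95% interval 96.97% to 98.26% over 2240 reads). Thus 9 CA3 cells were led by Grin2a and 4 by Grin2b.

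In CA1, Grin2a made 89.6% in N6, 87.9% in N1 and 42.3% in N2X, and Grin2b made 10.4%, 12.1% and 24.3%. N2X was the only cell of the 26 in which no subunit reached 50%, since Grin2d made 33.4% of its reads.

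Set side by side, the regions overlapped. The mean Grin2a share was 49.1% ± 30.96 (SD, n = 10 cells) in AC, 52.5% ± 31.04 (n = 13) in CA3 and 73.3% ± 26.8 (n = 3) in CA1. The mean Grin2b share was 36.4% ± 32.7, 45.9% ± 29.8 and 15.6% ± 7.55 in the same order. AC differed from CA3 by less than the larger SD in both shares, and the Grin2a difference of -3.40 percentage points turned to 2.05 without N41, to 0.08 without N46 and to 10.1 with reads summed over cells. The Grin2b share of CA3 lay 30.3 percentage points above that of the 3 CA1 cells, just over the CA3 SD, and the lowest CA3 cell (N33, 8.71%) lay below all 3. Summed over cells, Grin2a took 61.8% of the reads in AC (exact 95% interval 61.1% to 62.6%), 51.7% in CA3 (51.1% to 52.4%) and 67.1% in CA1 (65.2% to 68.9%). These intervals cover counting error only and are far narrower than the spread over cells.

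Markers of pyramidal neurons were found in cells led by Grin2b and in cells led by Grin2a. Slc17a7, the vesicular glutamate transporter of pyramidal neurons, had 333 reads in N46, 216 in N8 and 15 in N39, but 1 in N41, 3 in N40 and 0 in N28 and N31. Among cells led by Grin2a it had 31 reads in N26 and 7 in N4, and none or 1 in the others. Summed over the pyramidal list, the highest cells were N26 with 204 CPM and N1 with 138, both led by Grin2a, followed by N46 with 137, N8 with 34.5 and N39 with 12.2, all led by Grin2b. The list came to 0.83 CPM or less in the Grin2b-led cells N28, N31, N40 and N41. The Grin2b share also moved with depth: its correlation with the log2 of total reads was r = 0.50 and rho = 0.45 over the 26 cells, and its correlation with the number of detected genes was r = -0.23 (rho = -0.12) over the 26 cells, r = -0.13 (rho = 0.05) over the 10 AC cells and r = -0.56 (rho = -0.54) over the 13 CA3 cells. These points share the lysis and amplification of each cell, and are given as a description.

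Grin1, the obligatory subunit, varied over a wide range of reads. In AC its reads were 1907 in N3X, 1776 in N41, 1328 in N43, 827 in N44, 666 in N8, 485 in N46, 326 in N4, 203 in N5 and 0 in N42 and N7. In CA3 they were 2976 in N39, 2030 in N38, 805 in N37, 358 in N26, 350 in N34, 191 in N30, 91 in N32, 49 in N33, 32 in N29, 21 in N31, 9 in N27 and 0 in N28 and N40. CA1 cells had 1016 (N2X), 184 (N1) and 101 (N6). The summed Grin2 reads were 20 in N41 and lay between 557 and 4111 in the other cells.

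The 4 cells without a Grin1 read all had Grin2 reads: N42 had 557, N7 563, N28 1618 and N40 1685, beside a median of 1231 over the 26 cells. N42 and N7 had the fewest Grin2 reads of all cells after N41. A count of 0 allows up to 0.782 CPM in N42, 1.33 in N7, 1.26 in N28 and 0.697 in N40. These cells had 3163 to 5308 detected genes, and N42 had the fewest of the 26. N41 showed the reverse, with 1776 Grin1 reads beside 20 of Grin2b and none of Grin2a or Grin2d. In these 5 libraries the reads of Grin1 or of the Grin2 genes were at or near 0, and the limits cover counting error only, not loss in lysis, capture or amplification.

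**Figure D2:**
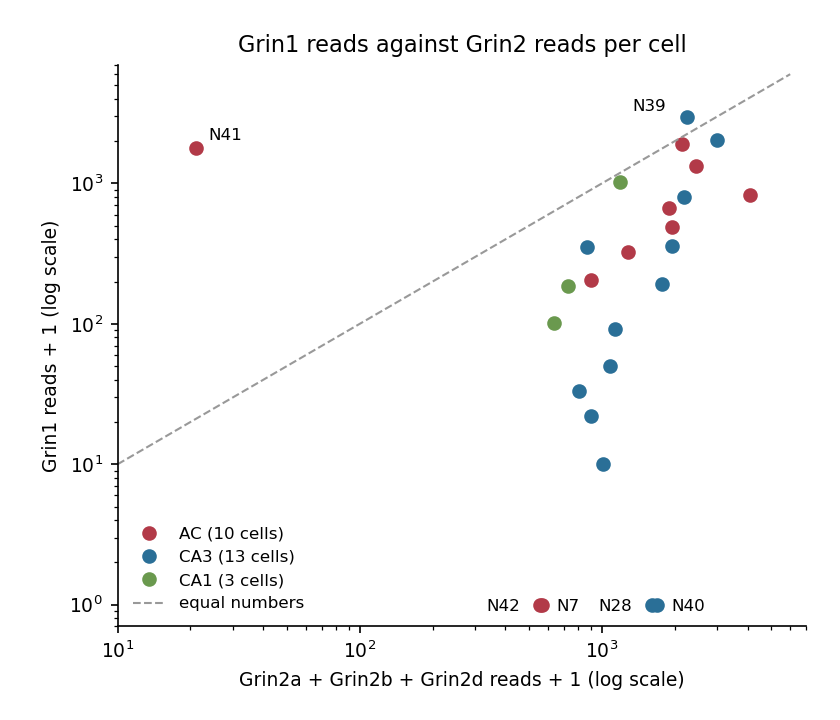
Grin1 reads (vertical) against summed Grin2a, Grin2b and Grin2d reads (horizontal) of each cell, each plus 1 and on log axes, coloured by region, with a dashed line at equal numbers. The 4 cells at the bottom had 0 Grin1 reads beside 557 to 1685 Grin2 reads, and N41 lies at the far left with 20 Grin2 reads.

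On the scale of levels, log2(normalized count + 1), Grin1 and summed Grin2 correlated with r = 0.08 and rho = 0.35 over 26 cells, r = 0.06 and rho = 0.30 over the 10 AC cells, and r = 0.07 and rho = 0.23 over the 13 CA3 cells. Grin1 reads exceeded Grin2 reads in 2 cells, N41 and N39. The mean log2 ratio of Grin1 to Grin2 reads was -2.28 ± 4.43 in AC, -4.20 ± 3.497 in CA3 and -1.61 ± 1.25 in CA1 (SD over cells, 1 read added to each), and the ranges of the regions overlapped. The AC mean went to -3.25 without N41 and to -1.52 without N7. AC minus CA3 was 1.92, or 0.95 without N41, and AC minus CA1 was -0.67, or 0.09 without N42 or N7 and 0.02 without N2X. Since a receptor needs both partners and the genes differ in length, the numbers were also set per length: Grin1 exceeded summed Grin2 in 6 of 26 cells per exonic length, in 5 per coding length and in 9 per transcript length.

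The mean level of Grin1 was 7.68 ± 4.13 in AC, 6.18 ± 3.51 in CA3 and 9.39 ± 1.20 in CA1. The difference was 1.499 for AC minus CA3, -1.72 for AC minus CA1 and -3.21 for CA3 minus CA1, each smaller than the larger SD. Summed over cells, Grin1 had 221 CPM in AC (exact Poisson 95% interval 216 to 226), 141 in CA3 (138 to 145) and 258 in CA1 (245 to 273). A single cell, N39, carried 43.1% of the CA3 reads, and without it CA3 had 96.2 CPM. In CA1, N2X carried 78.1% of the reads, and without it CA1 had 156 CPM. AC had 187 CPM without its highest cell, N3X, so AC then lay above CA1.

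Grin2a was read in 9 of 10 AC cells, in all 13 CA3 cells and in the 3 CA1 cells. Its reads in AC ran from 0 in N41 and 127 in N42 through a median of 495.5 to 3356 in N44, in CA3 from 52 in N39 through 758 to 2174 in N38, and in CA1 they were 637, 501 and 568. The mean level was 8.60 ± 3.36 in AC, 8.94 ± 1.90 in CA3 and 10.48 ± 1.40 in CA1. The difference, AC minus CA3, was -0.34 with N41 and 0.61 without it, so the direction of that small difference was set by 1 cell.

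Grin2b was the only member read in all 26 cells. Its reads ran from 20 (N41) and 23 (N42) through 266 to 1434 (N8) in AC and from 94 (N33) through 553 to 2188 (N39) in CA3. CA1 cells had 88, 287 and 66. Its level varied least of the 5 genes over AC cells and over CA3 cells, with 7.94 ± 2.02 in AC, 8.96 ± 1.24 in CA3 and 8.23 ± 0.81 in CA1. The difference, AC minus CA3, was -1.02, close to the median difference over all genes given below. The levels of Grin2a and Grin2b correlated with r = 0.66 (rho = 0.41) over 10 AC cells, where N41 was low in both, and with r = -0.29 (rho = -0.29) over 13 CA3 cells. The mean log2 ratio of Grin2b to Grin2a reads was -0.66 ± 2.51 in AC, 0.02 ± 2.56 in CA3 and -2.24 ± 1.25 in CA1.

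Grin2d was read in a minority of the hippocampal cells. AC cells N42, N46, N5, N4, N3X and N7 had 407, 384, 301, 156, 40 and 28 Grin2d reads, and N41, N43, N44 and N8 had none. In CA3 the reads were 245 in N28, 124 in N38, 22 in N26, 4 in N31, 2 in N30, 1 in N33 and 0 in the other 7 cells. Of the CA1 cells only N2X had any, 395. Grin2d was thus read in 6 of 10 AC cells (60.0%, exact 95% interval 26.2% to 87.8%), 6 of 13 CA3 cells (46.2%, 19.2% to 74.9%) and 1 of 3 CA1 cells, and with at least 10 reads in 6, 3 and 1. These intervals take each cell as a separate draw, though the mice of the cells are not known.

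As a share of the Grin2 reads, Grin2d reached 10% in 4 AC cells (N42 73.1%, N5 33.4%, N46 19.7%, N4 12.2%), in 1 CA3 cell (N28 15.1%) and in 1 CA1 cell (N2X 33.4%). The mean share was 14.5% ± 23.4 in AC, 1.62% ± 4.22 in CA3 and 11.1% ± 19.3 in CA1. The AC mean lay 12.9 percentage points above CA3, which is less than the AC SD, and 6.40 points above it without N42. The CA3 mean was 0.49% without N28. N42 had the most microglial marker reads of the 26 cells, 4365 CPM, and N46 the second most, 2740 CPM. The cells next in order, N27 with 2161 CPM and N41 with 911 CPM, had no Grin2d read. The other cells with a Grin2d share of at least 10% had 669 CPM (N4), 651 (N28), 409 (N5) and 0 (N2X), beside a median of 202 CPM over the 26 cells. The part of these reads in the Grin2d share was not tested. The mean level was 4.49 ± 4.11 in AC, 1.94 ± 2.93 in CA3 and 2.91 ± 5.04 in CA1. Summed reads gave 38.6 CPM in AC (36.6 to 40.8) and 8.15 in CA3 (7.37 to 8.99), and without the highest cell of each region 30.1 and 3.29 CPM, so the order of AC and CA3 was the same. CA1 had 78.5 CPM, all of it from N2X.

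Grin3a was nearly absent from AC apart from 1 cell. N3X had 2637 reads and N7 had 7, and the other 8 AC cells had none. In CA3 it was read in 8 of 13 cells, with 1932 reads in N38, 448 in N31, 443 in N32, 195 in N37, 131 in N28, 105 in N30, 71 in N33 and 45 in N39. CA1 had 1650 in N2X, 87 in N1 and 0 in N6. The mean level was 1.42 ± 3.502 in AC, 4.63 ± 4.10 in CA3 and 6.60 ± 5.78 in CA1, a difference of -3.20 for AC minus CA3, within the larger SD. Summed reads gave another picture, 77.6 CPM in AC (74.7 to 80.7) and 69.0 in CA3 (66.7 to 71.3), since N3X held 99.7% of the AC reads. Without N3X, AC had 0.233 CPM, and without N38, CA3 had 31.8.

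Of the 12 cells with a Grin3a read, 10 (83.3%) had Grin1 reads, close to the 84.6% of all 26 cells, and all had Grin2b reads, as every cell did. Only N28 and N7 had Grin3a without Grin1. All 5 genes were read in 6 cells, 1 of AC (N3X), 4 of CA3 (N30, N31, N33, N38) and 1 of CA1 (N2X). N3X, N38 and N2X, the cells with the most Grin3a in their regions, also had the highest, the second highest and the highest Grin1 counts of AC, CA3 and CA1. Over the 26 cells, however, the levels of Grin1 and Grin3a correlated with only r = 0.13 and rho = 0.20. In CA3, N31 had 448 Grin3a reads beside 21 of Grin1, and N39 had 45 beside 2976.

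**Figure D3:**
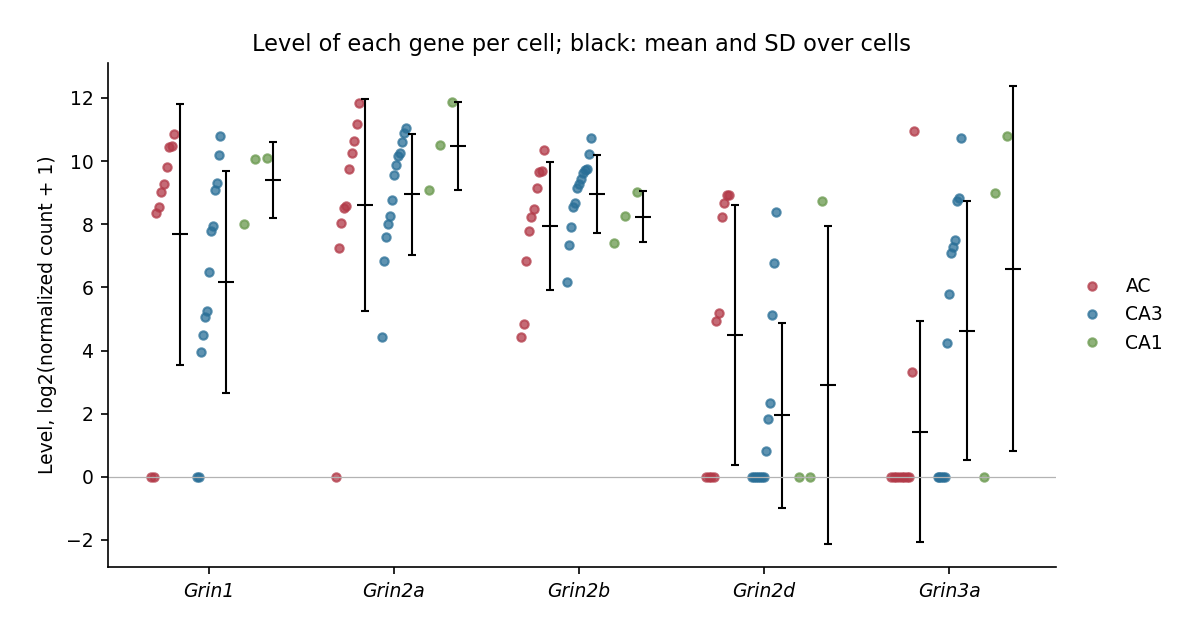
Level of each gene, log2(normalized count + 1), in each cell of AC, CA3 and CA1 (points), with the mean and SD over cells (black). Levels of Grin2a and Grin2b lay above 4 in every cell except N41 for Grin2a, whereas Grin2d and Grin3a were at 0 in 13 and 14 of the 26 cells.

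Of the other subunits, Grin2c, known from cerebellar granule cells and astrocytes, had no read in any of the 26 cells, which allows up to 0.0881 CPM in AC, 0.0614 in CA3 and 0.596 in CA1. Grin3b, known from motor neurons, had 22 reads in AC, 14 in CA3 and 3 in CA1, that is 0.646, 0.287 and 0.596 CPM.

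The comparison of levels between AC and CA3 needs the background of all genes. Of 6597 genes read in at least 10 of the 26 cells, 15.9% were higher in AC by at least 1 on the log2 scale, the size used here to call a difference, and 47.3% were lower, and the median difference was -0.87. Of the 5 members, Grin1 (1.499) and Grin2d (2.55) were called higher, Grin2b (-1.02) and Grin3a (-3.20) lower, and Grin2a (-0.34) neither. The Grin1 call was lost without N28 or N40 (0.98 each) and with summed CPM (0.64). The Grin2b call was lost on leaving out any of 10 cells, reaching -0.63 without N41, with summed CPM (-0.46), with a pseudocount of 10 (-0.94), on thinning (-0.99) and with all labelled cells (0.031), and the Grin3a call was lost with summed CPM (0.17). Relative to the median of all genes the differences were 2.37 for Grin1, 0.53 for Grin2a, -0.16 for Grin2b, 3.41 for Grin2d and -2.33 for Grin3a. CA3 cells also had more genes detected, 5860 ± 1240 against 4758 ± 1058 in AC (SD over cells), and the part of this in the differences was not tested.

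Against the 3 CA1 cells, 27.1% of all genes were higher in AC and 41.4% lower, with a median of -0.46. Grin2d was called higher in AC (1.58), Grin1 (-1.72), Grin2a (-1.88) and Grin3a (-5.17) lower, and Grin2b (-0.29) neither. Single cells decided 3 of these calls: Grin2d fell to 0.12 without N1 or N6, Grin1 was -0.86 without N42 or N7, and Grin2a was -0.92 without N41. With summed CPM, Grin2d turned to -1.02 and Grin1 and Grin2a were -0.23 each, and with a pseudocount of 10 Grin2d was 0.76. Between CA3 and CA1, 40.2% of all genes were higher in CA3 and 29.6% lower, with a median of 0.43. Grin1 (-3.21), Grin2a (-1.54) and Grin3a (-1.97) were called lower in CA3, and Grin2b (0.74) and Grin2d (-0.97) were not called. With summed CPM, Grin1 was -0.87 and Grin2a -0.66, while Grin2b (1.13) and Grin2d (-3.27) passed the called size. Without N1, Grin2a was -0.84 and Grin3a -0.77, no longer called, and Grin2b was 1.13 and Grin2d -2.42, both called. Without N2X, Grin2d was 1.94 and Grin3a 0.13. Leaving out any of 7 cells took Grin2d past the called size, and N2X was the 1 cell of these that also changed its sign. In none of the 3 comparisons did a member differ by more than the larger SD over cells. These comparisons share cells, and CA1 had only 3, of which N2X carried all Grin2d and 94.99% of the Grin3a reads.

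Between genes, levels can be compared only per length. Exonic length was 9700 bases for Grin1, 17933 for Grin2a, 24842 for Grin2b, 6658 for Grin2d and 12275 for Grin3a, and coding length 2943, 4392, 4447, 3969 and 3405. Per kilobase of coding length, AC cells had a mean of 73.8 ± 76.0 CPM of Grin2a (SD, n = 10 cells), 71.6 ± 58.6 of Grin1, 30.2 ± 26.6 of Grin2b, 19.2 ± 60.3 of Grin3a and 12.5 ± 15.6 of Grin2d. CA3 cells had 57.1 ± 47.2 of Grin2a, 43.4 ± 29.7 of Grin2b, 38.6 ± 58.1 of Grin1, 21.6 ± 42.3 of Grin3a and 2.89 ± 7.34 of Grin2d (n = 13). Grin2a came first in both regions and Grin2d last, but both places in AC rested on 1 cell: without N44 the mean of Grin2a was 56.3 and that of Grin1 70.0, and without N3X the mean of Grin3a was 0.101 and that of Grin2d 13.6. With reads summed over cells, Grin1 came to 75.02 CPM per coding kilobase in AC and Grin2a to 65.6. Per exonic kilobase of summed reads Grin1 was above Grin2a in both regions, with 22.8 against 16.1 in AC and 14.6 against 11.96 in CA3. CA1 cells had 127 ± 104 of Grin2a, 79.9 ± 45.05 of Grin1, 64.6 ± 78.0 of Grin3a, 21.7 ± 10.5 of Grin2b and 10.4 ± 17.9 of Grin2d (n = 3). In each region, every pair of neighbours in this order differed by less than the larger SD.

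**Figure D4:**
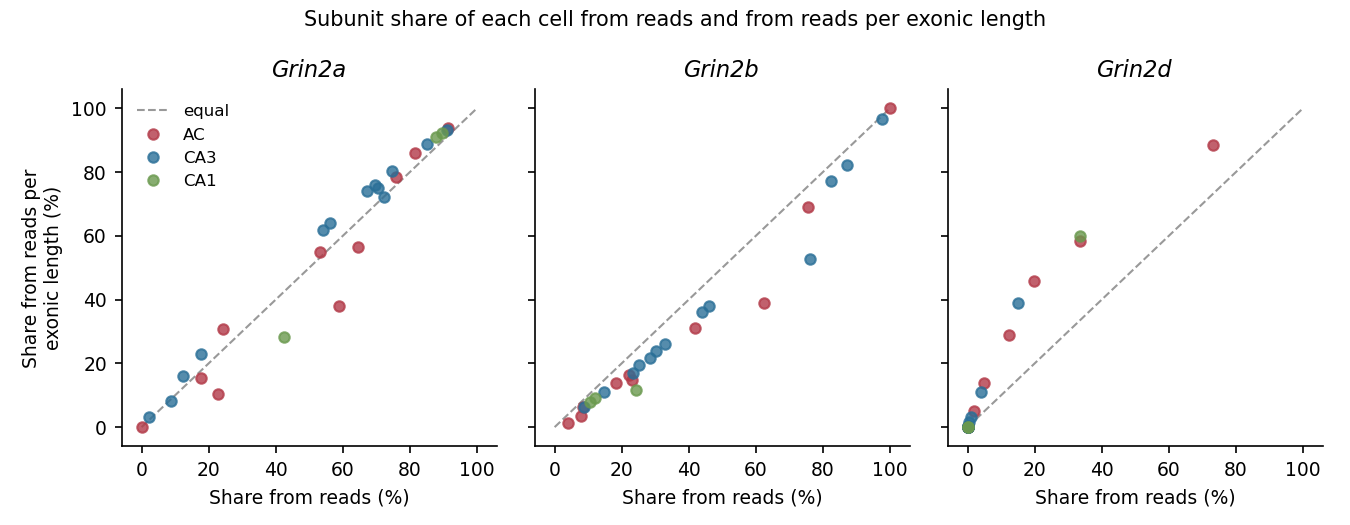
Share of each Grin2 subunit per cell from reads (horizontal, percent) and from reads divided by exonic length (vertical, percent), coloured by region, with a dashed line at equal shares. Dividing by exonic length raised the Grin2d share in each cell that had Grin2d reads and lowered that of Grin2b in every cell except N41, where it stayed at 100%.

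The shares of Grin2d, whose exons are the shortest, and of Grin2b, whose exons are the longest, moved with the choice of length. Per coding length, Grin2a led in 18 cells, Grin2b in 7 and Grin2d in 1, as with reads. Per exonic length, and likewise per transcript length, Grin2a led in 16, Grin2b in 6 and Grin2d in 4, and the mean Grin2d share rose to 24.03% ± 30.9 in AC, 4.27% ± 10.9 in CA3 and 20.0% ± 34.7 in CA1 per exonic length. The mean Grin2b share over the 26 cells was 38.8% in reads, 32.03% per exonic length and 29.8% per transcript length, and that of Grin2d 7.68%, 13.7% and 14.1%. The Grin2d share per exonic length was 88.4% in N42, 60.0% in N2X, 58.3% in N5 and 45.8% in N46. Grin2b exceeded Grin2a in 7 cells by every measure, 3 in AC and 4 in CA3.

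The genes whose levels ran most like each member over the 26 cells were different for each. Grin1 ran most like Dgkd (a diacylglycerol kinase, r = 0.76), Reln (the secreted protein reelin, r = 0.71) and Mapre3 (a microtubule end-binding protein, r = 0.69). Grin2a ran most like Dctn2 (a dynactin subunit, r = 0.79), Rnf10 (r = 0.77) and Rbm3 (a cold-induced RNA-binding protein, r = 0.76). Grin2b ran most like Psmc4 (a proteasome subunit, r = 0.73), Puf60 (a splicing factor, r = 0.65) and Eif3g (a translation initiation factor, r = 0.62). The rank correlations were lower for Dctn2 (0.40) and for the genes named for Grin2b, Psmc4 (0.39), Puf60 (0.32) and Eif3g (0.40). For Grin2d the closest were Rn18s-rs5, a sequence related to ribosomal RNA (r = 0.67), Kctd1 (r = 0.63) and Kdm2b (r = 0.62), and for Grin3a the predicted gene Gm9833 (r = 0.65), Prdm15 (r = 0.64) and Fnbp1 (r = 0.63). These are the highest of 6597 values, over cells that share a protocol and differ in depth.

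Genes that anchor, supply and regulate the receptor were counted from lists. Of 21 scaffold and trafficking genes, 18 were read in at least 10 cells, and between AC and CA3 7 were called higher in AC, 5 lower and 6 neither, beside 15.9% higher and 47.3% lower over all genes. The median difference was 0.40 against -0.87 over all genes. The largest differences were 2.67 for Homer1 (5.72 ± 4.11 in AC, 3.05 ± 3.62 in CA3), which links receptors of the postsynaptic density, and 2.48 for Dlg3, a relative of PSD-95. On the other side was -5.19 for Lin7a (4.12 ± 4.56 against 9.30 ± 3.12), a PDZ adaptor of the complex that carries NMDA receptor vesicles. Neto1, an auxiliary protein of NMDA and kainate receptors, had reads in 6 CA3 cells (level 3.92 ± 4.62 over the 13 cells) and in no AC cell, and lay outside the count because only 7 cells had reads. The Lin7a difference exceeded the larger SD.

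Of 6 genes of co-agonist supply, 3 were read in at least 10 cells, and 2 were lower in AC and none higher, beside 47.3% lower over all genes, with a median of -2.58 against -0.87. Slc1a4, a neutral amino acid transporter that carries D-serine, differed by -4.09 (1.36 ± 3.36 in AC, 5.46 ± 4.55 in CA3), and Srr, the serine racemase that makes D-serine, by -2.58 (2.74 ± 4.41 against 5.32 ± 3.86), both within the larger SD. Dao, the oxidase that degrades D-serine, and Slc6a5, a glycine transporter, had no read. Of 14 kinases and phosphatases, 12 were read in at least 10 cells, and 5 were higher in AC, 2 lower and 5 neither, beside 15.9% higher and 47.3% lower over all genes, with a median of 0.44 against -0.87. The number lower in AC was 0 with a pseudocount of 10, on thinning or without N37, and 0 to 3 over cells left out. The largest differences were 3.33 for Ptpn5 (7.50 ± 4.29 against 4.17 ± 4.54), the phosphatase STEP that acts on GluN2B, and 2.86 for Camk2b, a CaMKII subunit (9.28 ± 1.61 against 6.42 ± 3.48), with -1.67 for Ptk2b and -1.27 for Prkca on the other side. Ptk2b was read in 5 cells only and is not in the count.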

How the data were processed

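Single-cell RNA-seq was read from 1 table of raw read counts deposited by the authors (22800 symbols, 47 columns, 1 per sample, of which N4 and N4X were read as 1 cell; column names are the sample titles, so each column has 1 sample and none was left over: 0 columns belong to no sample). The authors trimmed reads (Trimmomatic, Flexbar), aligned them to GRCm38 with STAR, and averaged identifiers with the same symbol. The counter is HTSeq in the paper and featureCounts in the submitters' processing notes.

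From the counts, levels were computed as log2(count / size factor + 1), with scran 1.30.0 factors (pools of 10 and 20) over the 26 cells in R 4.3.3. CPM is per total reads of the column. A difference of at least 1 in mean level is spoken of as called, and genes with a read in at least 10 cells are the background. Intervals are exact (Poisson, Clopper-Pearson, 95%). Those of reads cover counting error only, since reads carried no molecular identifiers. Those of shares of cells take each cell as a separate draw, though cells of the same mouse may be among them. A count of 0 is given with the limit of 3 reads. No test of a difference between regions was run, as no label ties a cell to a mouse. The script was tested on simulated data.

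The members, the lists and the cells were chosen with earlier results of these data known. The 10 AC and 13 CA3 cells are those that an earlier analysis had matched to the heat maps of the paper by their values. The match did not find every CA3 neuron of the heat maps, so the CA3 values cover only part of the study's CA3 cells. Named genes are the members, Grin2c, Grin3b, for each member the 3 genes of highest correlation, and of each list the 2 genes of largest difference in each direction. Lengths and positions came from GENCODE vM21 by symbol. Alternatives were other size factors (TMM of edgeR 4.0.16, poscounts of DESeq2 1.42.0, library size, scran with a mean count of at least 10), pseudocounts of 10 and 0.1, summed CPM, a limit of 10 reads, Grin2 reads of at least 100, Grin2c added, shares per length, thinning to 601000 reads, all labelled cells, all genes with a read, and each cell left out. Shares per transcript length were added after the data were seen. Some marker genes and sequences are not reported here.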

Additional observations from a re-analysis of the deposited data

Results flagged for a closer look

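Over the 10 AC cells, 10 quantities were screened for a cell that stood apart, by the gap to the nearest cell over the range. Dixon's 95% critical value served as a cut and not as a test, since it holds for normally distributed values. Grin3a was read in 2 of the 10 AC cells and Grin2d in 6, so a cell with reads can pass there because others are at 0. The level of Grin2a was 0 in N41, far below the other cells. The level of Grin3a was 10.94 in N3X. The Grin2d share was 73.1% in N42. Each of these 3 cells decides a value in the report, where the values without them are given.

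Reads on the NMDA receptor genes were also found in columns outside the 26 cells, above the limit of 3 reads. These columns entered no comparison of the report, and those labelled AC or CA3 entered only the alternative with all labelled cells. N47 (AC) had 11668 Grin2a and 4634 Grin2b reads, and N36 (CA3) had 3713 and 1719, each with no Grin1 read. N48 (AC) had 4820 Grin2d and 641 Grin2a reads. N51 (AC) had 5876 Grin1 reads and no Grin2 read, beside 3797 reads of the pyramidal marker Slc17a7. These 4 columns had 1565 to 1814 genes detected. N45 (AC) had 803 Grin1, 831 Grin2b, 98 Grin2d and 216 Grin3a reads. Dentate gyrus columns N11 and N12 had 4 Grin2a and 56 Grin3a reads, out of only 89297 and 190573 reads in all. N23 of CA3 had 6 Grin2a reads out of 408585. Grin2c, at 0 in the 26 cells, had 152 reads in N10 (AC), 54 in N12, 28 in N22 (CA3) and 6 in N13 (CA3), columns with 7502, 4269, 5415 and 3881 reads of astrocyte markers and no Gad1 or Gad2 read. The NPY-negative CA3 cell had no read on the 5 genes. Its column held 291745 reads, 51639 of them on oligodendrocyte markers, and no read of Gad1, Gad2 or Slc17a7.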

How the results depend on the processing

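Of 2112 recomputed values, 1023 were identical to the reported one, many because the setting does not touch them, such as CA3 values with an AC cell left out. Of the other 1089, 1053 stayed within the spread or, for counts, within 1.5 times, 31 moved by more, and 5 values past the called size changed direction. Of 739 differences between regions that were not identical, called or not, 25 changed sign, 15 of them on leaving out a cell, and 46 member calls changed. No paired analysis was possible because the labels give no replicate numbers (those used here follow accession order and pair no cells) and no comparison of regions came from a test. Other size factors changed no direction of a member. Poscounts moved the median over all genes against CA1 to -0.29 (AC) and 0.62 (CA3), and Grin2b, CA3 minus CA1, to 1.06, past the called size of 1.

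With summed CPM, Grin1 became -0.23 (AC minus CA1) and -0.87 (CA3 minus CA1), and Grin2a -0.23 (AC minus CA1). Direction turned for Grin2a, 0.43, and Grin3a, 0.17 (AC minus CA3), and for Grin2b, 0.67, and Grin2d, -1.02 (AC minus CA1). With all labelled cells (41 columns), Grin1 was -5.14 (CA3 minus CA1) and Grin2a -3.65 (AC minus CA1) and -3.69 (CA3 minus CA1). Grin2b was 0.031 (AC minus CA3, reversed), -1.49 (AC minus CA1) and -1.52 (CA3 minus CA1, turned). Grin2a, AC minus CA3, turned to 0.043. In this setting the Grin2d share differed by 23.3 points between AC and CA3. Grin1 was read in 52.4%, and Grin2a and Grin2b each in 71.4%, of the CA3 columns. Of the CA3 columns added here, N13, N14, N15, N17, N18, N22 and N23 had no Gad1 or Gad2 read. They held 111958 to 408585 reads each. N36 had 40427 Gad1 and 5575 Gad2 reads. Among the added AC columns, N48 had 4820 Grin2d reads, no Gad1 read and 6 Gad2 reads. N45 had 98 Grin2d and 10339 Gad1 reads, and the only Grin2 read of N52 was on Grin2d. With reads summed over cells, the Grin2b share differed by 12.5 points (AC minus CA1) and the Grin2d share by 6.33 (AC minus CA3), and 2 share differences turned: Grin2a to 10.1 (AC minus CA3) and Grin2d to -7.24 (AC minus CA1). Per exonic and per transcript length the Grin2d share differed by 19.8 and 19.9 (AC minus CA3) and -15.7 and -15.8 points (CA3 minus CA1). Kinases lower in AC fell from 2 to 0 with a pseudocount of 10 and on thinning. The cause of these changes was not tested.

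Leaving out each cell in turn, the Grin2d share differed by 6.40 (without N42) to 14.5 points (AC minus CA3), by -3.11 (without N42) to 14.5 (AC minus CA1) and by -15.1 to 1.62 (CA3 minus CA1, reversed without N2X), the Grin3a level by -5.27 to 0.13 (CA3 minus CA1, reversed without N2X), and the Grin2d level by -2.42 to 1.94 (CA3 minus CA1) and 0.12 to 4.49 (AC minus CA1). Grin1 ranged from 0.98 to 2.35 (AC minus CA3). Cells with Grin2a in AC ranged from 88.9% to 100% (without N41), with Grin2d in CA1 from 0% (without N2X) to 50%, with Grin3a in CA1 from 50% to 100%. Kinases lower in AC ranged from 0 to 3. The shallowest cell, N1 of CA1, held 601781 reads, and counts of 0 there weigh least.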
